A study of Mus musculus with 9 samples.

Results

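The Reg genes encode small secreted C-type lectin proteins of the pancreas and gut. The 6 mouse members measured here were Reg1, Reg2, Reg3a, Reg3b, Reg3d and Reg3g, chosen by gene family and matched by Ensembl identifier and symbol, 6 of 56941 genes in the count table. The choice was made with earlier results of these data known, so counts of members set beside shares of all genes are descriptions. All 6 had enough counts to be tested. The samples were islets, the hormone-secreting cell clusters of the pancreas, from wild-type (WT) C57BL/6J males that began their diets at 15 weeks of age and stayed on them for 9 months. The low fat diet (LFD, 10% fat, 3 libraries) was the control, and the other groups ate a high fat diet (HFD, 60% fat, 2 libraries) or a ketogenic diet (KD, 89.9% fat, 4 libraries). The study's question was what ketogenic feeding changes in islet transcripts. Nothing in the labels says whether a library came from 1 mouse or a pool, so the p-values measure only the spread between these libraries.

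Reg1 and Reg2 are acinar products of the exocrine pancreas, long studied as regenerating islet-derived factors in injured or growing islets. Reg3b (pancreatitis-associated protein) and Reg3g are secreted lectins that bind bacterial cell walls in the intestine, and they rise in the acinar pancreas in pancreatitis. Cytokines of the interleukin-6 and interleukin-22 families raise Reg genes through the kinase JAK2 and the transcription factor STAT3, and the glycosyltransferase-like protein EXTL3 has been described as a Reg receptor.

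In the RefSeq table of the GRCm38.p6 assembly the genes stood next to each other on chromosome 6 in the order Reg3b, Reg3d, Reg3a, Reg2, Reg1, then the pseudogene Gm52853 and Reg3g. The 250 bases before each start site are shown because the log2 levels of these neighbouring genes were correlated over the 9 libraries. The Pearson r ran from 0.82 (Reg1 and Reg3b) to 0.98 (Reg1 and Reg3d). Such values were not particular to the family, since Itih4, outside it, had an r of 0.99 with Reg1. The sequences are from RefSeq (GRCm38.p6, 5′ to 3′ on the gene's strand). Capitals mark CACCTG, the pancreatic E-box core bound by the acinar factor PTF1, TTTCCC, part of the site of its partner RBPJL, and TTCNNNGAA, the STAT core, on either strand.
Reg1 promoter, chr6:78425733-78425982, plus strand: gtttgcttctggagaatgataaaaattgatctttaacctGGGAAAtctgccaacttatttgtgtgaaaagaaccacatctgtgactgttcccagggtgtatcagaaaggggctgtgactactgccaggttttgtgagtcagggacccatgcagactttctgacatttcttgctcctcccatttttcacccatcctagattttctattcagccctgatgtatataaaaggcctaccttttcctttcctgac
Reg2 promoter, chr6:78404905-78405154, plus strand: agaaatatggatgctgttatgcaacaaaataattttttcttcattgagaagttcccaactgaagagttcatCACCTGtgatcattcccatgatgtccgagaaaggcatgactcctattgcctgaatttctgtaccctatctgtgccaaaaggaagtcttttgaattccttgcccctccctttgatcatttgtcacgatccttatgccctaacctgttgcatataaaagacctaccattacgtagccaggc
Reg3a promoter, chr6:78380459-78380708, plus strand: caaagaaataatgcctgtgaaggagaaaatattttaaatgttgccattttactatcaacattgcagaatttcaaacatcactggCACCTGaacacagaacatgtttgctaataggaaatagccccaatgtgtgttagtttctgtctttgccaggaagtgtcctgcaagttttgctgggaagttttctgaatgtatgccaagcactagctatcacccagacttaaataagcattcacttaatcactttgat
Reg3d promoter, chr6:78378866-78379115, minus strand: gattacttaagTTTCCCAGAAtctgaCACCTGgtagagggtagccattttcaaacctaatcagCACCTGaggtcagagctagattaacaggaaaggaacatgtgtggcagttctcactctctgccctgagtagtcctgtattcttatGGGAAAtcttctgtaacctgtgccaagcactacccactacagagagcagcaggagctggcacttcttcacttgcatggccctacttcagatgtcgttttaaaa
Reg3b promoter, chr6:78370635-78370884, plus strand: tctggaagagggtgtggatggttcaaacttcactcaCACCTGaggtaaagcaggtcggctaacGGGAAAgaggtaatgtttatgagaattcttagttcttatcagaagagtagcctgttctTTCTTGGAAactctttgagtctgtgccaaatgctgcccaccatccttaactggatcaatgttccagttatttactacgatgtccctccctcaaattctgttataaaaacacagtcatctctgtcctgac
Reg3g promoter, chr6:78468875-78469124, minus strand: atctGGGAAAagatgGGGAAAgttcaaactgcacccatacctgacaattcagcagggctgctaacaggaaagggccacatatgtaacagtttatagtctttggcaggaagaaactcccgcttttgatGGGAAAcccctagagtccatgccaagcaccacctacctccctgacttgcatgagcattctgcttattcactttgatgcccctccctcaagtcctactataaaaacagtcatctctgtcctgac
CACCTG was present before Reg2, Reg3a, Reg3b and Reg3d, 4 of the 6 members, and in 17.2% of 32851 promoter windows of the same length. TTTCCC was found before Reg1, Reg3b, Reg3d and Reg3g, and in 21.9% of the windows. The STAT core occurred before Reg3b, 129 bases from the start, and before Reg3d, where it overlapped a TTTCCC match, against 7.02% of the windows. TATAAAA, which is not capitalised, lay 27 to 30 bases before the start of Reg1, Reg2, Reg3b and Reg3g and occurred in 4.98% of the windows. The motifs were chosen with the sequences in view, and a match is a description of letters, not of binding.

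The coding sequences were related but distinct. Reg1 and Reg2 shared 78.8% of aligned coding bases, the highest identity of any pair, Reg3b and Reg3g shared 76%, and the lowest pair, Reg2 and Reg3g, shared 54.8%. The first 60 coding bases of Reg3b and Reg3g are printed as an example of how the closest antimicrobial members differ, with the 10 differing bases in capitals (GENCODE M21 transcripts).
Reg3b first coding bases: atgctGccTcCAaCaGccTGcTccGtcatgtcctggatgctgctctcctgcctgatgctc
Reg3g first coding bases: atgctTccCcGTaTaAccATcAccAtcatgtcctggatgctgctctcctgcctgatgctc
No 50-base window of any member's coding sequence occurred in the transcripts of another gene (0 of 446 to 476 windows per member). Reads of that length from the coding part could therefore be told apart by sequence, but the read length of these libraries was not given in the sources used here.

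Reg transcripts made up 0.0568% to 0.606% of all counts in LFD libraries, 0.0842% and 0.115% in HFD libraries, and 0.268% to 1.13% in KD libraries. The means were 0.329% ± 0.274 (SD, n = 3) on LFD, 0.0998% ± 0.0221 (n = 2) on HFD and 0.756% ± 0.384 (n = 4) on KD. The half-width of the 95% Wilson interval of a library's share was at most 0.00486 percentage points, which covers counting error only. Reg1 alone held 90.2% to 97.8% of the Reg counts in each library, Reg2 0.135% to 4.45%, Reg3d 1.32% to 2.92% and Reg3b 0.133% to 2.92%. Reg3a and Reg3g stayed at or below 0.702% in every library.

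Levels of different genes were compared as CPM (counts scaled to the TMM library size) divided by transcript length in kilobases. On KD the mean levels per kilobase were 12071 for Reg1, 567 for Reg2, 253 for Reg3d, 49.0 for Reg3a, 48.2 for Reg3b and 13.7 for Reg3g. On LFD they were 3080 for Reg1, 105 for Reg2, 63.5 for Reg3d, 41.9 for Reg3b, 5.51 for Reg3a and 2.77 for Reg3g. On HFD the order was Reg1 at 807, Reg3d at 14.5, Reg2 at 11.4, Reg3b at 1.52, Reg3g at 1.0 and Reg3a at 0.810. Reg1 was above every other member in 9 of 9 libraries. The neighbours Reg2 and Reg3d changed places, Reg2 being above Reg3d in 7 of 9 libraries, and Reg3a was above Reg3b in 1 library and above Reg3g in 6. Set against the larger SD of each neighbouring pair, the means of Reg2 and Reg3d were not separated on any diet, nor were those of Reg3a and Reg3b on KD or of Reg3g and Reg3a on HFD. On LFD none of the neighbours below Reg1 was separated in this way. This SD is a spread between libraries that the members share, so it does not measure their order within a library. For example, Reg3b was at 26.2, 98.0 and 1.44 per kilobase in LFD replicates 1 to 3, above Reg3a at 6.54, 9.99 and 0.

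The libraries also differed in acinar content, and the acinar cell is the known pancreatic source of Reg proteins. A list of 37 acinar genes, such as the proteases Cpa1 and Ctrb1 and the lipase Pnlip, took 15.3% to 36.1% of counts on LFD, 11.4% and 19.1% on HFD and 20.6% to 61.3% on KD. Insulin genes, the beta cell products, took 4.77% to 8.02%, 9.54% and 10.6%, and 1.44% to 11.1%. These are bulk libraries, in which fewer cells of a type and less RNA per cell cannot be told apart. Among 34 acinar genes tested for KD against LFD with edgeR, 20 had an unadjusted p below 0.05 (22.7% of all genes did) and 1 passed the adjusted threshold of 0.05 (4.12% of all genes), Amy2b, an amylase of a near-identical gene family. Amy2b went the other way from most of the list, from 169 ± 96.8 CPM (SD, n = 3) on LFD to 19 ± 13.5 (n = 4) on KD (adjusted p = 0.0279), whereas the median of the list was a log2 fold change of 1.51 against -0.02 over all genes. The list had 0 lower genes without LFD replicate 1 or 2 or KD replicate 1 or 2. The remaining 33 acinar genes did not pass in that fit; the DESeq2 Wald test called 9 of the list higher and 2 lower (3.66% and 5.9% of genes), limma-voom 3 higher and 3 lower (3.42% and 6.64%), and edgeR without KD replicate 4 called 17 higher and 2 lower (3.88% and 3.52%). In the comparison of HFD with LFD edgeR called 0 acinar genes (6 at unadjusted p below 0.05, DESeq2 1, limma-voom 0), with a median of -1.12. For KD against HFD it also called 0 (30 at unadjusted p below 0.05, DESeq2 27, limma-voom 0), with a median of 2.57. TMM scaling multiplied library sizes by factors from 0.542 in KD replicate 1 to 1.5 in HFD replicate 2, so CPM on this scale stands higher in acinar-rich libraries than a plain share of counts does.

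Reg1, the most abundant member, measured 5547, 2367 and 438 CPM in LFD replicates 1 to 3, 922 and 538 CPM in the HFD libraries, and 17205, 7344, 17004 and 2095 CPM in KD replicates 1 to 4. KD replicates 1, 2 and 3 stood above every other library, while KD replicate 4 fell within the LFD range and both HFD libraries lay between the lower LFD libraries. The group means were 2784 ± 2580 CPM (SD, n = 3) on LFD, 730 ± 271 (n = 2) on HFD and 10912 ± 7465 (n = 4) on KD. The KD against LFD log2 fold change was 1.97 ± 0.87 (SE), with an unadjusted p of 0.0458 and an adjusted p of 0.211 in edgeR's quasi-likelihood test with Benjamini-Hochberg adjustment over 18548 genes. In KD against HFD it was 3.90 ± 1.14 (SE, adjusted p = 0.125 in edgeR), and in HFD against LFD -1.93 ± 1.05 (SE, adjusted p = 0.563).

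Reg2, the close relative of Reg1, measured 102, 117 and 0.610 CPM in LFD replicates 1 to 3, 4.95 and 10.9 CPM on HFD, and 574, 151, 763 and 94.1 CPM in KD replicates 1 to 4. LFD replicate 3 held 13 Reg2 counts against 1658 and 2605 in the other LFD libraries, the lowest Reg2 value of the 9 libraries. KD and LFD libraries overlapped through KD replicate 4, and both HFD libraries lay below all 4 KD libraries. The edgeR log2 fold change was 2.44 ± 1.39 (SE, adjusted p = 0.347) for KD against LFD and 5.63 ± 2.0 (SE, adjusted p = 0.167) for KD against HFD. The HFD against LFD value was -3.20 ± 1.79 (SE, adjusted p = 0.578).

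Reg3d, a family member of the pancreas whose role is less well described, had the same 3 highest libraries as Reg1 at a lower level. It measured 82.8, 53.0 and 13.2 CPM on LFD, 12.5 and 10.3 CPM on HFD, and 310, 112, 322 and 47.9 CPM on KD. KD replicate 4 again lay within the LFD range, and the HFD libraries stood just below the lowest LFD library. The edgeR log2 fold change was 2.0 ± 0.80 (SE, adjusted p = 0.192) for KD against LFD, -2.13 ± 0.99 (SE, adjusted p = 0.518) for HFD against LFD and 4.12 ± 1.07 (SE, adjusted p = 0.124) for KD against HFD. Over the 9 libraries the log2 CPM values of Reg1 and Reg3d had a Pearson r of 0.98, the highest of the 15 pairs of members, and those of Reg1 and Reg3b 0.82, the lowest. These r describe libraries that share depth, acinar content and scaling.

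Reg3a was scarce. It measured 5.40, 8.24 and 0 CPM on LFD, where the 0 of LFD replicate 3 allows up to 0.141 CPM at 3 counts, then 0.750 and 0.587 CPM on HFD and 40.0, 6.77, 99.6 and 15.5 CPM on KD. Only KD replicate 2 overlapped the LFD libraries, lying between LFD replicates 1 and 2. The HFD values rest on 15 and 14 counts. Its edgeR log2 fold change was 3.14 ± 1.27 (SE, adjusted p = 0.202) for KD against LFD (2.18 without KD replicate 3), -2.76 ± 1.83 (SE, adjusted p = 0.63) for HFD against LFD and 5.90 ± 1.88 (SE, adjusted p = 0.145) for KD against HFD.

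Reg3b, the pancreatitis-associated protein, had the KD against LFD value nearest 0 of the 6 members, though differences between members were not tested. It measured 20.5, 76.8 and 1.13 CPM on LFD, 1.45 and 0.922 CPM on HFD, and 63.2, 10.2, 53.3 and 24.3 CPM on KD. The highest library was LFD replicate 2, and the KD libraries lay within the LFD range, so the means were 32.8 ± 39.3 CPM (SD, n = 3) on LFD and 37.7 ± 24.7 (n = 4) on KD. The edgeR log2 fold change for KD against LFD was 0.19 ± 1.09 (SE, adjusted p = 0.941), and it was -0.38 without LFD replicate 3 and 1.81 without LFD replicate 2. Between HFD and LFD it was -4.80 ± 1.75 (SE, unadjusted p = 0.0271, adjusted p = 0.449), and it was -3.18 without LFD replicate 2. The HFD libraries held 29 and 22 counts; LFD replicate 3, with 24 counts, was as low as they were. For KD against HFD it was 4.99 ± 1.74 (SE, adjusted p = 0.161).

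Reg3g, the antimicrobial lectin closest to Reg3b in sequence, was the member in which KD and LFD libraries did not overlap. It measured 3.43, 2.64 and 0.328 CPM on LFD, 1.0 and 0.545 CPM on HFD, and 8.09, 4.99, 13.1 and 16.1 CPM on KD. All 4 KD libraries stood above all 5 others, and KD replicate 4, the KD library lowest in Reg1, Reg2 and Reg3d, was the highest in Reg3g. The counts were small, 7 to 59 on LFD, 13 and 20 on HFD and 104 to 359 on KD. The edgeR log2 fold change was 2.32 ± 0.64 (SE, unadjusted p = 0.00456, adjusted p = 0.0719) for KD against LFD, -1.46 ± 0.84 (SE, adjusted p = 0.575) for HFD against LFD and 3.78 ± 0.84 (SE, adjusted p = 0.124) for KD against HFD.

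**Figure D1:**
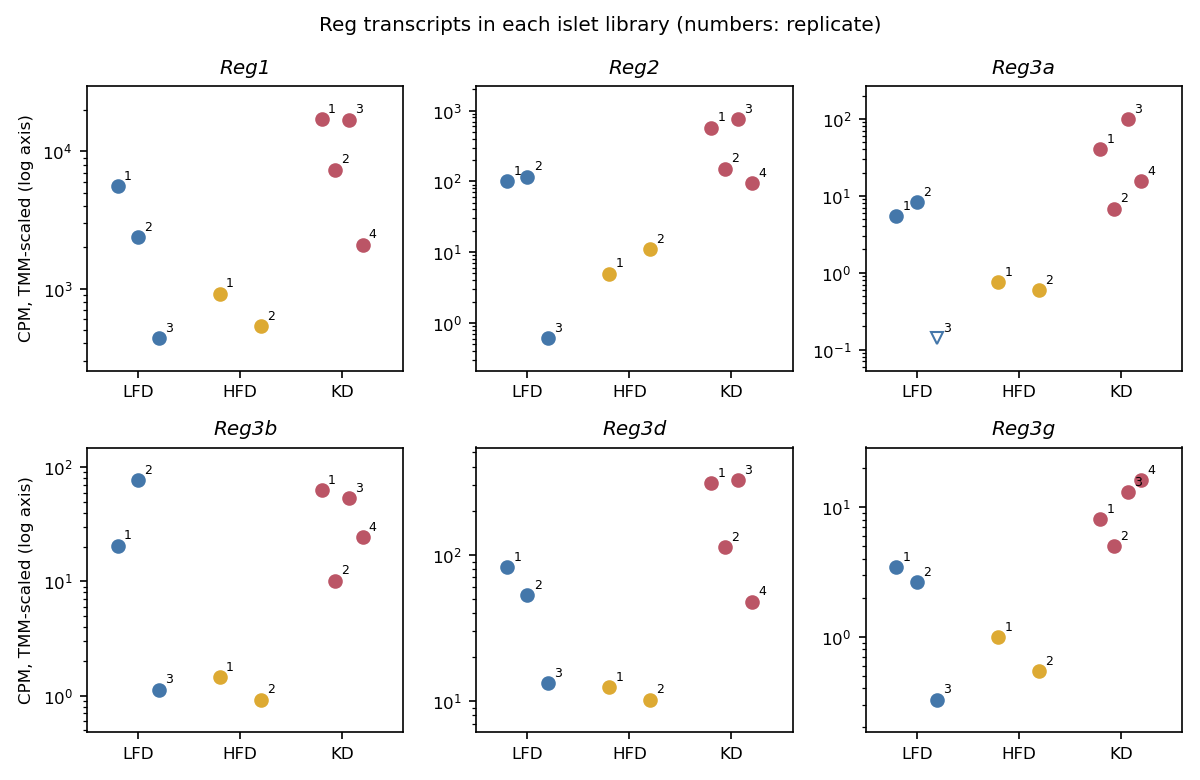
Level of each Reg gene in each library as TMM-scaled CPM on a log axis, 1 point per library, by diet, with the replicate number beside it. The open triangle is Reg3a in LFD replicate 3, which had 0 counts and is drawn at 3 counts (0.141 CPM). The KD points of all 6 genes lie above both HFD points, and only in Reg3g do they also lie above all LFD points. Of all genes tested, 15.7% had every KD library above both HFD libraries and 9.69% had every KD library above all LFD libraries.

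Over the family, 0 of 6 members passed the adjusted threshold for KD against LFD in edgeR, where 4.12% of all genes did (0.981% higher, 3.14% lower). At an unadjusted p below 0.05 there were 4 of 6, Reg1, Reg3a, Reg3d and Reg3g, against 22.7% of genes, and the DESeq2 Wald test called 1, Reg3g (adjusted p = 0.00247), against 9.56% of genes, while limma-voom called 0 against 10.1%. The members' median log2 fold change was 2.16 against -0.02 over all genes. The count at unadjusted p was 1 (Reg3g) without KD replicate 1, without KD replicate 3 or without HFD replicate 1, and 2 without LFD replicate 2, LFD replicate 3 or HFD replicate 2. Fold changes of at least 4 were reached by Reg2, Reg3a and Reg3g, 3 of 6, against 0.318% of genes, with Reg1 (3.92-fold) and Reg3d (3.99-fold) just below that limit. This count was 1 (Reg3a) without LFD replicate 3, 2 without KD replicate 3, and 5 (all but Reg3b) when LFD replicate 1, KD replicate 2 or KD replicate 4 was left out. The groups did not overlap in 1 of 6 against 9.69%.

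For HFD against LFD edgeR called 0 of 6 members and 0% of genes, with 1 of 6 (Reg3b) at an unadjusted p below 0.05 against 9.99% of genes. That count was 6 without LFD replicate 3 and 0 without either HFD library. The DESeq2 Wald test called 1, Reg3b (log2 fold change -4.83, adjusted p = 0.0372), against 1.44% of genes, and limma-voom 0 against 0.0539%. The fold changes of all 6 members were below 0, with a median of -2.44 against -0.0017 over all genes. Reg3d was the 1 member of 6 whose HFD libraries lay below all LFD libraries, against 14.1% of genes, and Reg2, Reg3a, Reg3b and Reg3d, 4 of 6, were at least 4-fold lower, against 2.44%. The LFD side of this comparison was wide, since LFD replicate 3 was low in all 6 genes: LFD replicate 1 exceeded it 12.7 times in Reg1 and 167 times in Reg2, and 2.82 times in the summed level of the acinar list, all in TMM-scaled CPM.

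For KD against HFD edgeR called 0 of 6 members and 0% of genes. All 6 had an unadjusted p below 0.05, between 0.00115 and 0.0247, against 22.7% of genes, but the count fell to 2 (Reg3d and Reg3g) without HFD replicate 2, to 3 (Reg1, Reg3d and Reg3g) without HFD replicate 1 and to 4 without KD replicate 1. In all 6 every KD library was above both HFD libraries, against 15.7% of genes, and all 6 reached a 4-fold difference, against 1.54%. The median log2 fold change was 4.56 against -0.04. The DESeq2 Wald test called all 6 (adjusted p between 9.33e-05 and 0.0154) and 8.18% of genes, limma-voom called 0 of either, and edgeR without KD replicate 4 called Reg1, Reg3d and Reg3g (adjusted p = 0.0311, 0.0365 and 0.0338) and 9.84% of genes. Differences between the contrasts were not tested, and the contrasts share libraries.

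The acinar share moved with most members. The 3 libraries with the highest acinar share, KD replicates 1, 3 and 2, were also the 3 highest in CPM of Reg1, Reg2 and Reg3d. The 3 libraries with the lowest share, both HFD libraries and LFD replicate 3, were the 3 lowest in every member. Counted per 10000 acinar-list counts, Reg1 was 161, 116 and 35.9 in LFD replicates 1 to 3, 59.1 and 70.7 on HFD, and 152, 137, 185 and 119 in KD replicates 1 to 4. On this scale the KD libraries fell around LFD replicates 1 and 2, and remained above both HFD libraries. Reg3d per 10000 acinar counts was 2.41, 2.59 and 1.09 on LFD, 0.798 and 1.35 on HFD and 2.74, 2.10, 3.50 and 2.71 on KD. Here too KD overlapped LFD replicates 1 and 2, and HFD lay below KD.

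Among the less abundant members the same scale spread the libraries more. Reg2 per 10000 acinar counts was 2.96, 5.71 and 0.050 on LFD, 0.317 and 1.43 on HFD, and 5.06, 2.83, 8.29 and 5.33 on KD. Reg3a was 0.157, 0.403 and 0 on LFD, 0.0481 and 0.0771 on HFD, and 0.353, 0.127, 1.08 and 0.878 on KD. Both had HFD below all KD libraries, and both overlapped between LFD and KD. Reg3b was 0.598, 3.76 and 0.0924 on LFD, 0.0929 and 0.121 on HFD, and 0.558, 0.190, 0.578 and 1.38 on KD. Its maximum was again in LFD replicate 2, and its HFD libraries too lay below all KD libraries, as in Reg1 and Reg3d. The share of all genes with HFD below all KD libraries was not counted on this scale. Reg3g was 0.0999, 0.129 and 0.0269 on LFD, 0.0641 and 0.0716 on HFD, and 0.0714, 0.0932, 0.142 and 0.911 on KD. On this scale Reg3g in KD replicates 1 and 2 lay among the LFD and HFD libraries, KD replicate 3 lay just above LFD replicate 2, and KD replicate 4 was the highest.

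**Figure D2:**
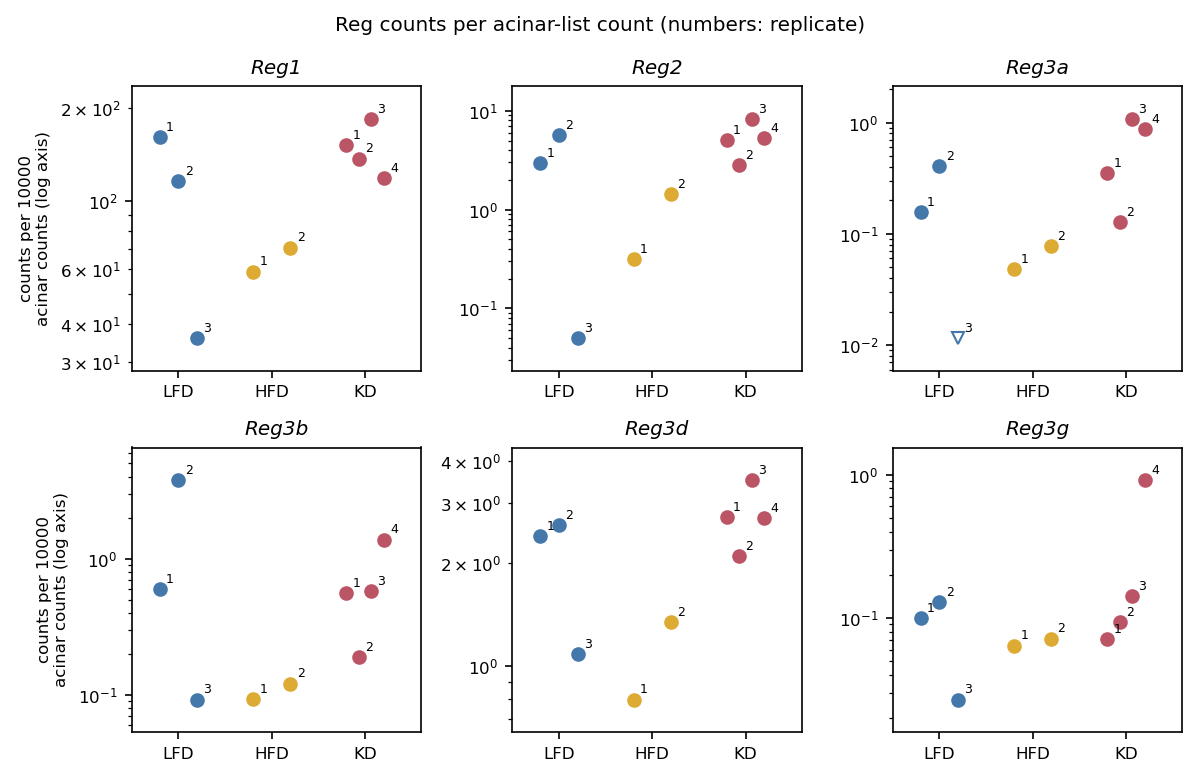
Counts of each Reg gene per 10000 counts of the 37 acinar genes, log axis, 1 point per library, with the replicate number beside it. The open triangle is Reg3a in LFD replicate 3 at 3 counts; KD and LFD replicates 1 and 2 overlap in Reg1 and Reg3d, and KD replicate 4 is highest in Reg3g at 0.911.

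Libraries of similar acinar share can be set side by side. KD replicate 4 (20.6% acinar), HFD replicate 1 (19.1%) and LFD replicate 2 (25.3%) had 2095, 922 and 2367 CPM of Reg1, and 94.1, 4.95 and 117 CPM of Reg2. They had 24.3, 1.45 and 76.8 CPM of Reg3b and 16.1, 1.0 and 2.64 CPM of Reg3g. Reg3a was at 15.5, 0.750 and 8.24 CPM and Reg3d at 47.9, 12.5 and 53.0 CPM. LFD replicate 3 (15.3% acinar) was also near HFD replicate 1 in share. It had 438 CPM of Reg1, 0.610 of Reg2, 1.13 of Reg3b, 0.328 of Reg3g, 0 of Reg3a and 13.2 of Reg3d. The LFD libraries on either side thus differed widely, and so few libraries allow no test.

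**Figure D3:**
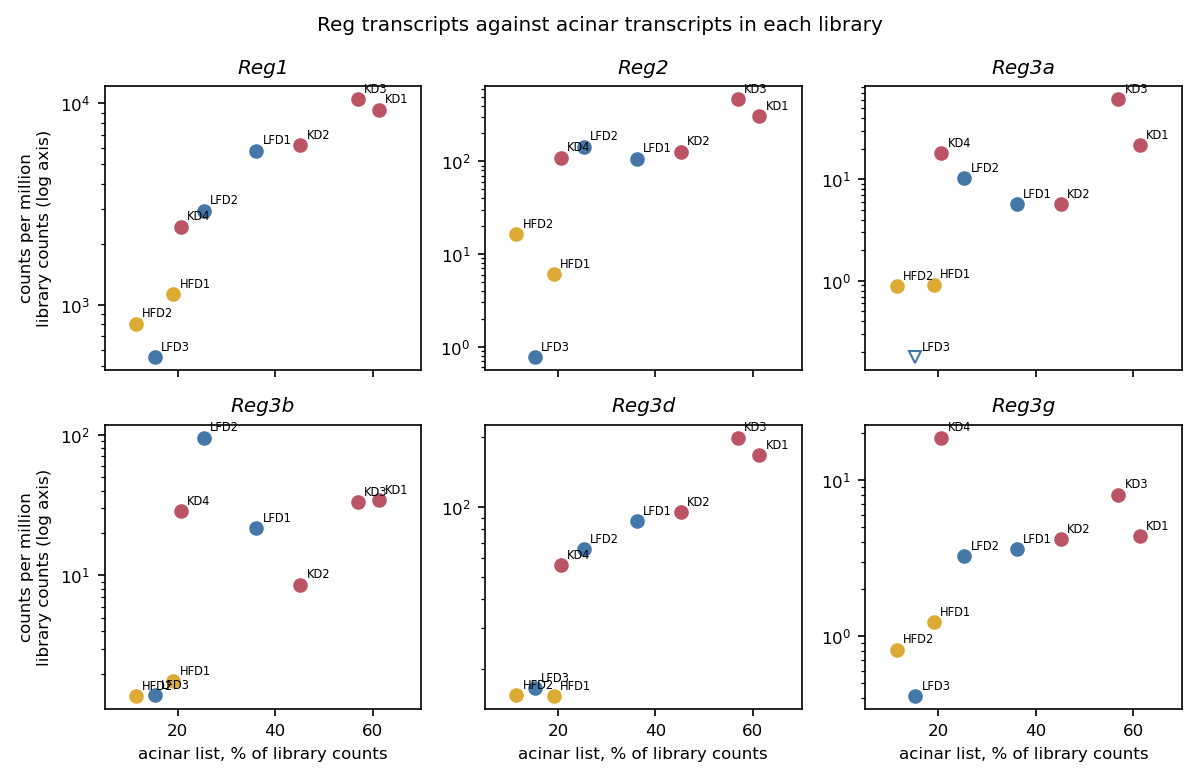
CPM of each Reg gene without TMM scaling (vertical log axis) against the share of counts held by the 37 acinar genes (horizontal axis, percent), 1 labelled point per library. Reg1 and Reg3d climb with the acinar share across diets, while Reg3b and Reg3g have high points at low shares, LFD replicate 2 at 25.3% and KD replicate 4 at 20.6%.

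With an acinar score, the mean log2 CPM of the acinar list, added to the edgeR model, the KD against LFD log2 fold change was 0.72 ± 0.34 (SE, adjusted p = 0.236) for Reg1 and 0.80 ± 0.31 (SE, adjusted p = 0.16) for Reg3d, down from 1.97 and 2.0. For Reg3g it was 2.30 ± 0.72 (SE, adjusted p = 0.0974 in edgeR), close to its value of 2.32 without the score. Per 10000 acinar counts, Reg3g was 0.911 in KD replicate 4, 0.0714 to 0.142 in the other KD libraries and 0.0269 to 0.129 on LFD. The score was not fitted without KD replicate 4. Reg2 went from 2.44 to 1.22 ± 1.32, Reg3a from 3.14 to 2.07 ± 1.22 and Reg3b from 0.19 to -0.45 ± 1.29 (SE). For KD against HFD the score took Reg1 from 3.90 to 0.52 ± 0.52 (SE) and Reg3d from 4.12 to 1.26 ± 0.48 (SE). Reg2 went from 5.63 to 2.38 ± 2.14, Reg3a from 5.90 to 3.52 ± 2.05 and Reg3b from 4.99 to 3.54 ± 2.23 (SE). Reg3g was 3.67 ± 1.06 (SE, adjusted p = 0.364 in edgeR). For HFD against LFD, Reg1 went from -1.93 to 0.20 ± 0.46 (SE) and Reg3b from -4.80 to -3.99 ± 2.08 (SE, adjusted p = 0.75 in edgeR). Reg2 went from -3.20 to -1.16 ± 1.93, Reg3a from -2.76 to -1.45 ± 2.01 and Reg3d from -2.13 to -0.46 ± 0.42 (SE). No member passed the adjusted threshold with the score, where edgeR called 8.17% of genes for KD against LFD and 0% in the other comparisons.

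**Figure D4:**
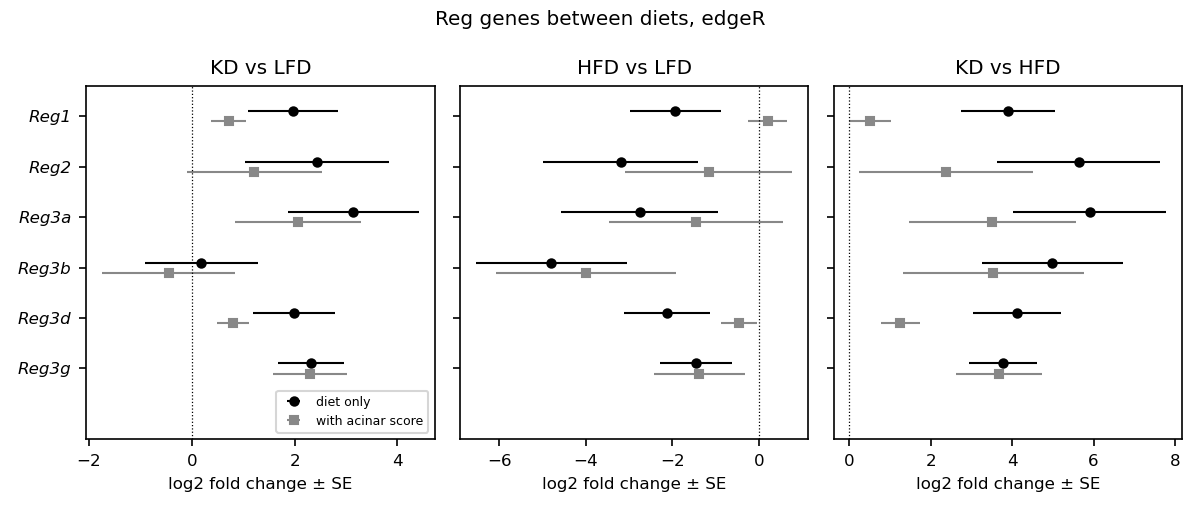
The log2 fold change of each Reg gene in the 3 comparisons from edgeR, with diet alone (black circles) and with the acinar score as covariate (grey squares); bars are ± 1 SE and the dotted line is no difference. Reg1, Reg2, Reg3a and Reg3d move toward 0 with the score in each panel, and Reg3g stays near its value. Per acinar count, only KD replicate 4 stood far above the other libraries in Reg3g.

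Markers of other cell types also moved between libraries. The summed level of 12 lymphocyte markers was 515, 1241 and 67.4 CPM in LFD replicates 1 to 3, 56.1 and 74.0 CPM on HFD, and 6.15 to 25.8 CPM on KD. LFD replicate 2, highest in lymphocyte markers, was the highest library in Reg3b. LFD replicate 3, lowest of the LFD libraries in these markers, was the lowest of them in Reg3b, as in every other member. Across diets the 2 levels did not run together. Reg3b was at 63.2, 10.2, 53.3 and 24.3 CPM on KD, where the markers were lowest, and at 1.45 and 0.922 CPM on HFD. Macrophage markers (9 genes) summed to 174 to 434 CPM on LFD, 189 and 272 on HFD and 86.7 to 171 on KD. Duct markers (14 genes) summed to 917 to 1461, 567 and 767, and 627 to 1943 CPM. Neutrophil markers (5 genes) stayed at or below 2.51 CPM. Intestinal epithelium markers (8 genes) summed to 38.4 to 62.7 CPM on LFD, 45.9 and 64.4 on HFD and 39.5 to 74.9 on KD. Of the 8, 3 had enough counts to be tested, whereas Cdx1 had no counts and Cdx2 had 4 in all libraries together. The part of lymphocytes, macrophages and duct cells in the Reg values was not tested beyond these levels.

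The cytokine pathway that is known to raise Reg genes was followed with 25 genes of the interleukin-6 family and STAT3 pathway. For KD against LFD, 5 of 22 tested were lower and 0 higher by edgeR (adjusted threshold 0.05; 3.14% of genes were lower), with a median log2 fold change of -0.12. Of these, Socs3, a feedback inhibitor induced by STAT3, measured 31.0, 31.1 and 23.5 CPM on LFD, 6.90 and 11.6 on HFD, and 9.10, 7.17, 7.66 and 8.02 on KD. All LFD libraries were above all others. The Socs3 log2 fold change was -1.84 ± 0.20 (SE, adjusted p = 0.00211 in edgeR). Il6, the cytokine itself, had 329 counts in the LFD libraries, 2 and 27 in the HFD libraries and 2 in the KD libraries. The scaled ratio of LFD to KD was 189 (95% counting interval 51.9 to 1566, edgeR adjusted p = 0.00445). Osmr, the oncostatin M receptor, fell by 1.25 on the log2 scale, the kinase Jak2 by 0.53, and Pim1, a kinase that STAT3 induces, by 1.81, with edgeR adjusted p of 0.0147, 0.0261 and 0.023.

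The rest of the pathway included its most abundant genes. Stat3 was at 109 ± 25.5 CPM (SD, n = 3) on LFD and 97.1 ± 7.49 (n = 4) on KD (edgeR adjusted p = 0.664). The receptor Lifr was at 297 and 392 CPM, the kinase Jak1 at 164 and 163 CPM, and Il6ra at 152 and 160 CPM, with none past the threshold. Il22ra1, the interleukin-22 receptor, was at 14.6 ± 7.86 CPM on LFD and 40.9 ± 25.4 on KD (SD), a log2 fold change of 1.47 (edgeR adjusted p = 0.21). In the comparisons with HFD, HFD against LFD and KD against HFD, edgeR called 0 genes of the list and 0% of all genes. The list's median log2 fold changes there were -0.35 and 0.07, with 4 and 12 of the 22 above 0. At unadjusted p below 0.05 there were 5 and 6, against 9.99% and 22.7% of genes. DESeq2 called 4 and 3, against 1.44% and 8.18%, and limma-voom 1 and 0, against 0.0539% and 0%. Lymphocyte markers were also lower on KD than on LFD (11 of 12 genes by edgeR, against 3.14% of all genes). Their part in the pathway values was not tested. With the lymphocyte score in the model edgeR called 0% of all genes, so its calls say nothing of single genes; the log2 fold changes were then -6.03 for Il6, -1.05 for Socs3, -0.47 for Jak2, -0.01 for Osmr and 0.94 for Pim1. Calls for Osmr, Pim1 and Jak2 were lost when LFD replicate 1 or 2 or KD replicate 3 was left out, those of Pim1 and Jak2 also without KD replicate 2, and that of Jak2 without KD replicate 1, whereas Socs3 and Il6 kept theirs when any 1 library was left out.

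**Figure D5:**
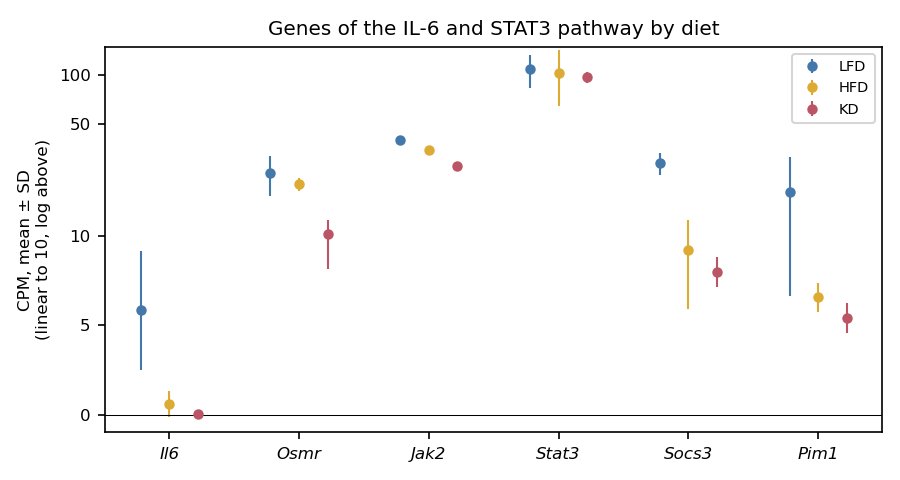
Mean level of 6 interleukin-6 and STAT3 pathway genes by diet in TMM-scaled CPM (axis linear up to 10 and logarithmic above), with bars of ± 1 SD over 3 LFD, 2 HFD and 4 KD libraries. Il6, Osmr, Socs3 and Pim1 have their highest means on LFD, and Stat3 differs least, with means of 109 on LFD and 97.1 on KD.

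A list of 22 genes that respond to pancreatic stress or injury was counted in the same way. For KD against LFD, 5 of 18 tested were lower and 0 higher by edgeR (3.14% of genes were lower), with a median log2 fold change of -1.47. They were the stress transcription factor Atf3 (66.7 ± 14.3 CPM on LFD, 10.5 ± 2.68 on KD, SD, adjusted p = 0.000784), the chemokines Cxcl1 and Ccl2, the cytokine Il1b and the lipocalin Lcn2. Il1b and Lcn2 lost their calls without LFD replicate 1 or 2 or KD replicate 2 or 3, and Lcn2 also without KD replicate 1. Ccl2 counts summed to 328 over the LFD libraries and 6 over the KD libraries, and were 4 and 18 in the HFD libraries. The scaled ratio of LFD to KD was 62.8 (95% counting interval 28.5 to 172). The abundant stress genes Clu and Nupr1 were at 465 and 116 CPM on LFD and at 608 and 281 CPM on KD (edgeR adjusted p = 0.597 and 0.18), and Cd44 was at 50.8 and 37.0 CPM (adjusted p = 0.347). In HFD against LFD and KD against HFD edgeR called 0 of the 18 and 0% of all genes. The list's median log2 fold changes there were -1.11 and -0.405, with 1 and 6 of the 18 above 0. At unadjusted p below 0.05 there were 9 and 7, against 9.99% and 22.7% of genes. DESeq2 called 5 and 4, against 1.44% and 8.18%, and limma-voom 1 and 0, against 0.0539% and 0%. These 5 genes were lower on KD than on LFD, where Reg1, Reg2, Reg3a, Reg3d and Reg3g had fold changes above 0 that did not pass the threshold.

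Of 5 genes described as Reg relatives or partners, 4 were tested and 0 were called by edgeR in any comparison. For KD against LFD, HFD against LFD and KD against HFD, 2, 0 and 2 had an unadjusted p below 0.05 (22.7%, 9.99% and 22.7% of all genes). DESeq2 called 0, 0 and 1 (9.56%, 1.44% and 8.18%), and limma-voom 0, 0 and 0 (10.1%, 0.0539% and 0%). Extl3, the described receptor, was at 119 ± 32.6 CPM on LFD, 81.9 ± 13.7 on HFD and 243 ± 129 on KD (SD), a KD against LFD log2 fold change of 1.03 (edgeR adjusted p = 0.17). Ext2, a related heparan sulfate polymerase, was at 37.5 and 47.3 CPM on LFD and KD, and Egfr, a growth factor receptor, at 35.9 and 37.2 CPM. Reg4, the family member encoded elsewhere in the genome, had 0 counts in all 9 libraries.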

How the data were processed

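Polyadenylated RNA from islets was made into strand-specific libraries, per the labels' protocols. The authors deposited raw counts per Ensembl gene, 1 column per library, 15513502 to 26588390 counts each. The submitters' processing notes name cutadapt 1.16, STAR 2.7.9a, featureCounts 1.6.3, DESeq2 1.40.2 and GRCm39; of the strand option, annotation release, handling of shared reads and batches, nothing is given in the sources used here, and a batch cannot be told apart from diet.

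Symbols from the supplied annotation matched 51948 of 56941 genes. Counts were analysed with edgeR 4.0.16 (R 4.3.3): filterByExpr by diet kept 18548 genes, libraries were scaled by TMM, and all 9 libraries were fitted together by robust quasi-likelihood with 1 mean for each diet. Tests were two-sided, with Benjamini-Hochberg adjustment over all genes tested and a threshold of 0.05. SE is the size of the log2 fold change over the square root of F. Level per kilobase used the longest coding transcript in GENCODE M21. Alternatives included DESeq2 1.42.0 and limma-voom (limma 3.58.1), other scalings and filters, covariates, a replicate block and each library left out. No libraries matched within sampling noise (chi-square per gene at least 22.5).

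The members and gene lists were chosen with earlier results of these data known. The text names the 6 members, the list genes past the threshold (the 5 of lowest p where there are more), the 3 most abundant genes of 4 lists, and the 3 genes most like each member; others, such as Stat3, Il22ra1, Cdx1 and Cdx2, were chosen after their values were seen. On simulated KD against LFD counts (17755 genes, 200 changed), edgeR recovered 49% of 2-fold and 86% of 4-fold changes, with 7 false calls and 0 wrong signs. These rates give none for genes as variable as the Reg members, whose SE for KD against LFD ran from 0.64 to 1.39. In the real fit Reg2 at 5.42-fold and Reg3a at 8.81-fold did not pass the threshold.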

Additional observations from a re-analysis of the deposited data

How the results depend on the processing

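With 2 to 4 libraries a diet and acinar shares that differ within each diet, the Reg comparisons have wide errors, and Reg3a, Reg3b and Reg3g rest on few counts on HFD. For KD against HFD, where edgeR called 0 members and 0% of genes, the DESeq2 Wald test called 6, against 8.18% of genes. The range over the omission of each library was 0 to 3, with 3 without KD replicate 4, against 9.84% of genes. For KD against LFD and for HFD against LFD the DESeq2 Wald test called 1 member each, against 9.56% and 1.44% of genes. Omission of any library called 0 members there, against 0.822% to 7.4% and 0% to 1.06% of genes. The cause was not tested.

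Same-numbered libraries of different diets had correlations of -0.016 to 0.222 in their deviations from the diet means, and differently numbered ones -0.277 to 0.238. With 2 HFD libraries the deviations mirror each other, so these values cannot settle whether the numbers pair libraries. With the replicate block, 1 member was called for KD against HFD (Reg1, 4.63, edgeR adjusted p = 0.0244), against 12.5% of genes, and 0 for KD against LFD and HFD against LFD, against 10.8% and 2.13%. With it 11 stress genes were lower and 24 acinar genes higher for KD against LFD (5.47% and 5.33% of all genes).

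The log2 ratio of Reg share for KD against HFD was 2.75, and 3.59 per TMM-scaled library size. The sign of Reg3b for KD against LFD turned with limma-voom (-0.11), with the acinar score (-0.45) and in 4 of the omissions: LFD replicate 1 (-0.08) or 3 (-0.38), KD replicate 1 (-0.18) or 3 (-0.02). Over all omissions it ran from -0.38 to 1.81. For HFD against LFD it turned for Reg1 with the acinar score (0.20), and with the lymphocyte score for Reg2 (1.85), Reg3b (1.69) and Reg3g (0.88). That score also turned Pim1 (0.94), Il1b (0.76) and Krt19 (0.40) for KD against LFD.

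Counts for gene lists under the alternatives were chosen after seeing the data. With the lymphocyte score, 0 STAT3 pathway, 0 stress and 0 duct genes were lower for KD against LFD, and edgeR then called 0% of all genes. Without each library in turn the counts ran from 2 to 7, from 3 to 8 and from 2 to 6, where 0.778% to 4.58% of all genes were lower. Lower stress genes numbered 12 of 18 with DESeq2 and 10 of 18 with limma-voom (5.9% and 6.64% of all genes). They numbered 10 of 22 with no filter and 2 of 10 with at least 5 CPM in 3 libraries (2.39% and 2.57%). Fold changes were followed over the alternative runs only for the members and for the named STAT3 pathway, stress and duct genes past the threshold. The remaining ones of these kept their direction in every run.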

Other observations

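The duct cell list, which was not otherwise described, had 6 of 14 genes lower on KD than on LFD by edgeR and 0 higher (3.14% and 0.981% of all genes). The 5 with the lowest p were Cftr, the chloride channel (12.4 ± 4.45 CPM on LFD, 3.62 ± 0.863 on KD, SD, adjusted p = 0.0104), the secreted phosphoprotein Spp1 (204 and 91.4 CPM, adjusted p = 0.0115), the carbonic anhydrase Car2 (3.60 and 0.852 CPM, adjusted p = 0.0125), the keratin Krt19 (39.7 and 9.96 CPM, adjusted p = 0.014) and Ambp (24.1 and 15.1 CPM, adjusted p = 0.0212). Tff2, the most abundant of the 14, was at 454 ± 197 CPM on LFD and 806 ± 492 on KD (SD, adjusted p = 0.421). The summed duct level therefore did not show the direction of these 5 genes. Calls for Car2, Krt19 and Ambp were lost without LFD replicate 1, those of Krt19 and Ambp also without LFD replicate 2 or KD replicate 2, and that of Ambp without KD replicate 3. With the lymphocyte score, under which edgeR called 0% of all genes, the log2 fold changes were -1.08 for Spp1, -1.63 for Car2, -0.50 for Ambp, -0.88 for Cftr and 0.40 for Krt19. In other lists, the macrophage lysozyme Lyz2 (37.1 and 8.96 CPM, adjusted p = 0.021), the delta cell factor Hhex (15.7 and 8.49 CPM, adjusted p = 0.018) and Cdh17, at 37 counts in all libraries together (adjusted p = 0.0418), were lower on KD than on LFD by edgeR.

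The genes whose log2 CPM followed each member most closely over the 9 libraries were Itih4, Rpl27 and P2rx1 for Reg1 (Pearson r of 0.99 each), Tob1, Rps13 and Qars for Reg3d (1.0, 0.99 and 0.99), and Fbl, Reg3a and Tsen54 for Reg2 (0.98, 0.98 and 0.97). For Reg3a they were Zdhhc4, Ndufb7 and Zfp598 (0.99, 0.98 and 0.98), for Reg3b Guca1b, Hdgfl2 and Efemp1 (0.96, 0.95 and 0.95), and for Reg3g Adrm1, Ndufb7 and Reg3a (0.95, 0.94 and 0.94). These r are descriptions of 9 libraries that share depth, acinar content and scaling.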
